A study of Mus musculus with 2 samples.

Results

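The cells described here were natural killer (NK) cells of mouse liver that carried transcripts of Xcl1, a chemokine that draws dendritic cells bearing its receptor XCR1, or of Tnfrsf9, the costimulatory receptor 4-1BB. They were selected on their own measured counts of unique molecular identifiers (UMIs), the molecules counted per gene. A cell barcode needed at least 200 detected genes and at most 10% of its UMIs from mitochondrial genes. It also needed at least 2 UMIs over the NK receptor genes Ncr1, Klrb1c and Klre1, at least 2 UMIs over Xcl1 and Tnfrsf9, at most 1 over Itga1 and Cxcr6, at most 2 of Lyz2, and 0 over Cd3e and Cd3d. These limits kept 717 of the 7969 deposited barcodes, 350 in the Ctrl library and 367 in the RES library. They are called gated cells below, and the main comparison set was the 888 Ctrl and 780 RES cells that met every other limit and had 0 UMIs of Xcl1 and Tnfrsf9. The levels of Xcl1, Tnfrsf9 and the other selecting genes were fixed by the selection and are given as a description.

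The series profiled liver leukocytes of C57BL/6 mice in 2 single-cell libraries. The Ctrl library came from uninjured mice and the RES library from mice whose liver fibrosis had resolved; the agent that caused the fibrosis, the time of resolution, and the age and sex of the mice are not given in the sources used here. Each library pooled liver mononuclear cells from 5 mice after a Histopaque step, and those positive for CD45, a protein of all leukocytes, and for CD11b, the product of Itgam, were sorted by flow cytometry and run through 10x 3′ droplets. Both groups therefore hold only NK cells that had passed a CD11b sort, and with 1 pooled library per group the group and the library cannot be told apart. No test across mice was possible, so the 95% intervals given below are exact and cover counting error only. Single cells within a library are not replicates.

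NK cells are innate lymphocytes that kill infected or transformed cells with perforin and granzymes and release interferon-γ and chemokines when their receptors or cytokines such as IL-12, IL-15 and IL-18 engage them. In mice they mature from cells high in CD27, which keep more of the transcription factor TCF-1, to cells high in CD11b and KLRG1, which carry egress and homing receptors for blood. NF-kB, a transcription factor held in the cytoplasm by inhibitor proteins, drives many genes of the early response, among them the inhibitors that later shut it off.

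The Ctrl library held 20379164 UMIs in 3691 barcodes and the RES library 34119806 in 4278, with a median of 4325 and 6310.5 UMIs per barcode. The libraries shared 56 barcode sequences, none of them in a gated cell. Median depth in the gated cells was 4107.5 UMIs (1722 genes) for Ctrl and 4832 UMIs (1925 genes) for RES, and in the cells with a sum of 0 it was 2960.5 and 3719.5 UMIs. A gate on counts takes deeper cells, so each comparison was also made with the compared cells weighted to matching depths (given as "depth-weighted"). Levels are UMIs summed over the cells of a set, scaled to the total UMIs of that set (CPM, the usual unit). Log2 ratios are ratios of CPM, and a gene was counted as higher or lower where it differed by at least 1.5-fold after 10 CPM had been added to both levels.

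All 10 NK markers had UMIs in the gated cells, but Ncr1, Klrb1c and Klre1 among them had been used for the selection. Their share of the NK marker sum was therefore partly fixed. Markers of other leukocytes had UMIs as well. The 10 NK markers, all with UMIs, summed to 17010 CPM in the Ctrl gated cells and 17378 in the RES ones, below the 24339 and 23606 CPM of the cells with a sum of 0. The gap lay mainly in Gzma, which encodes granzyme A: Gzma was at 8545 CPM in the Ctrl gated cells and 8507 in the RES ones, against 14234 and 13373 in the cells with a sum of 0. Some T cell markers had UMIs: 7 of 12 in Ctrl and 6 of 12 in RES had UMIs and summed to 730.1 and 622 CPM, against 567 and 503 CPM, with Cd3d and Cd3e at 0 by selection and Cd8a also at 0. The T cell receptor constant gene Trbc1 alone gave 363 and 346 CPM, and Cd3g 44.5 and 7.60 CPM. ILC1 markers, which were partly limited by the selection, summed to 116 and 158 CPM with 7 of 7 detected, against 43.3 and 50.1 CPM.

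Markers of monocytes and macrophages summed to 812 and 951 CPM in the gated cells (12 and 11 of 12 with UMIs), against 758 and 798 CPM. A UMI of these markers was found in 90% of Ctrl and 94.3% of RES gated cells, against 80.2% and 90.4% of cells with a sum of 0. For T cell markers the shares were 87.1% and 86.1%, against 71.7% and 71.8%. Of the monocyte and macrophage markers, Lyz2 was limited by the selection, and Ccr2 is also on the list of ILC1 and tissue-residency genes used below. Ccr2 alone was at 514 CPM in Ctrl and 501 in RES gated cells with Xcl1 but no Tnfrsf9 UMI. In gated cells with a Tnfrsf9 UMI it was at 375 and 396 CPM. Dendritic cell markers summed to 741 and 829.8 CPM (11 and 9 of 11), against 601 and 863 CPM. B cell markers reached 317 CPM in the Ctrl gated cells (6 of 7) and 127 in the RES ones (6 of 7, Ebf1 at 0), against 147 and 129 CPM; most of the Ctrl excess was Igkc from 1 barcode. Neutrophil markers were at most 2.03 CPM, hepatocyte markers at most 9.63 CPM, and the erythroid and platelet markers at most 14.2 CPM in the gated cells. The part of these transcripts in the results below was not tested. A doublet score set per library would have removed 7 gated cells in each library, 2% and 1.91% of them.

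In Ctrl, 24.0% of the 1457 NK cells were gated (95% interval 21.8 to 26.3), and in RES 26.4% of 1392 (24.1 to 28.8). That order depended on depth. Among cells with 3000 to 5000 UMIs the share was 29.4% in Ctrl and 23.0% in RES, among cells with 5000 or more it was 49.7% and 40.7%, and after each cell was thinned to 1000 UMIs before selection it was 9.73% and 6.88%. Below 3000 UMIs the order was the other way, at 8.90% and 11.7%. No order of the groups is therefore read from the shares. Over all NK cells of each library, Xcl1 was at 435 CPM in Ctrl and 318 in RES, and Tnfrsf9 at 96.5 and 64.3 CPM.

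Most gated cells sat close to the limit: the median sum of Xcl1 and Tnfrsf9 UMIs was 4 in Ctrl and 3 in RES, with a highest sum of 66 and 133. Cells with a sum of 10 or more made up 5.15% of Ctrl NK cells (4.07 to 6.41) and 3.30% of RES ones (2.43 to 4.38). Just inside the limit lay 92 Ctrl and 134 RES cells with a sum of 2, and just outside it 219 and 245 cells with a sum of 1. In these neighbouring classes Ltb stood at 191 and 146 CPM in Ctrl and at 239 and 152 in RES, so the limit cut through a gradient. Xcl1 UMIs without Tnfrsf9 were found in 181 Ctrl gated cells (51.7%) and 213 RES ones (58.0%), Tnfrsf9 without Xcl1 in 37 and 30, and both in 132 and 124. Macrophage-lineage barcodes rich in Lyz2, with at least 10 Lyz2 UMIs and no UMI of Ncr1, Klrb1c or Klre1, should lack Xcl1 and Tnfrsf9. Of these, 1.02% in Ctrl and 1.15% in RES had an Xcl1 UMI at median depths of 7656 and 10231 UMIs. The share of gated cells with an Xcl1 UMI is fixed by the selection and is not set against it.

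**Figure D1:**
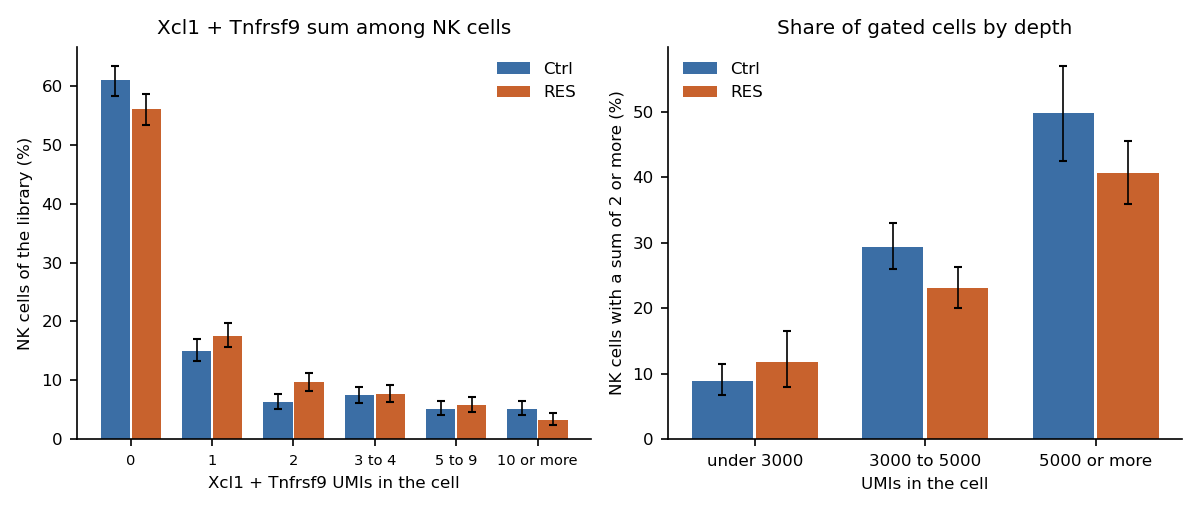
Left: percentage of the NK cells of each library (vertical axis) by the sum of Xcl1 and Tnfrsf9 UMIs in the cell (horizontal axis), with bars for Ctrl and RES. Right: percentage of NK cells with a sum of 2 or more by UMIs per cell, with exact 95% intervals for counting error; the share goes from 8.90% to 49.7% in Ctrl and from 11.7% to 40.7% in RES across the depth classes.

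The limit on Itga1 and Cxcr6, markers of tissue-resident type 1 innate lymphoid cells (ILC1), mattered for which Xcl1 or Tnfrsf9 cells were kept. Of the barcodes left out by that limit alone, 94 of 111 in Ctrl (84.7%) and 36 of 45 in RES (80.0%) had a sum of 2 or more. An Itga1 or Cxcr6 UMI was also somewhat more frequent inside the gate, in 22 Ctrl and 17 RES gated cells (6.29% and 4.63%), than in cells with a sum of 0 (2.70% and 2.05%). The limits on Cd3 genes and on Lyz2 left out 12 and 17 further barcodes with a sum of 2 or more in Ctrl, and 27 and 23 in RES.

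The working name of these cells was activated NK cells, and 3 genes outside the selection were to mark that state: Ccl4, a chemokine that draws other leukocytes, Gzmb, which encodes granzyme B, and Serpinb9, whose product protects killer cells from granzyme B. Ccl4 was at 1569 CPM in the Ctrl gated cells and 1033 in the RES ones, against 642 and 686 in the cells with a sum of 0. The log2 ratio of gated cells to cells with a sum of 0 was 1.29 in Ctrl (1.20 to 1.38) and 0.59 in RES (0.50 to 0.68), and the RES value fell short of 1.5-fold after 10 CPM was added. Gzmb was at 920.0 CPM in the Ctrl gated cells and 609.8 in the RES ones, against 624 and 599 in the cells with a sum of 0, log2 ratios of 0.56 and 0.02. Serpinb9 was at 393 CPM in the Ctrl gated cells and 408 in the RES ones, against 397 and 437 in the cells with a sum of 0, log2 ratios of -0.01 and -0.10. Serpinb9 thus did not separate the gated cells in either library, and Gzmb did not separate the gated cells as a whole in RES. There Gzmb was at 904 CPM in gated cells with a Tnfrsf9 UMI and at 384 in those with Xcl1 but no Tnfrsf9 UMI. These values lay on either side of the 599 CPM of the cells with a sum of 0.

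Ccl4 UMIs lay in few cells, inside the gate and outside it. The top 10% of gated cells by Ccl4 held 72.7% of its UMIs in Ctrl and 66.8% in RES, against 34.6% and 34.7% for Serpinb9. Among cells with a sum of 0, the top 10% by Ccl4 held 57.0% and 55.9%. With every cell thinned to 1000 UMIs, 35.9% of Ctrl and 33% of RES gated cells had a Ccl4 UMI, close to the 33.5% and 34.1% of cells with a sum of 0; the full-depth values were 60.6% and 58.6% against 54.3% and 56.7%. In Lyz2-rich cells the thinned shares were 1.68% and 2.41%. Because 1 of the 3 marks was level in both libraries, the cells are called Xcl1/Tnfrsf9 NK cells here and not activated NK cells.

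Against NK cells with a sum of 0, the Ctrl gated cells had 75 genes 1.5-fold or more higher and 64 lower of the 1736 genes that reached 100 CPM in 1 set or the other, which is 4.32% and 3.69% of them. In RES 18 genes were higher and 24 lower among 1657, or 1.09% and 1.45%. With a minimum of 20 CPM, at which the gene lists below were counted, 4.34% of 6100 genes were higher and 3.98% lower in Ctrl, and 1.66% and 1.53% of 6068 in RES. These percentages are the background for each list count. Beyond the selecting genes, the genes that ranked highest by the smaller of their ratios in the 2 libraries were Ltb, Cd160, Serpina3g, Thy1, Tcf7, Emb, Ly6e, Ppp1r14b, Nme1, Cd27, Ranbp1, Mif and Ccl4. Those that ranked lowest were Cma1, Borcs7, S1pr5, Ly6c2, Klra9, Zeb2, Hist1h1e, Arhgef18, Klrg1 and Klf2. Ribosomal protein genes took 24.4% of UMIs in both gated sets, against 21.2% and 21.5%.

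**Figure D2:**
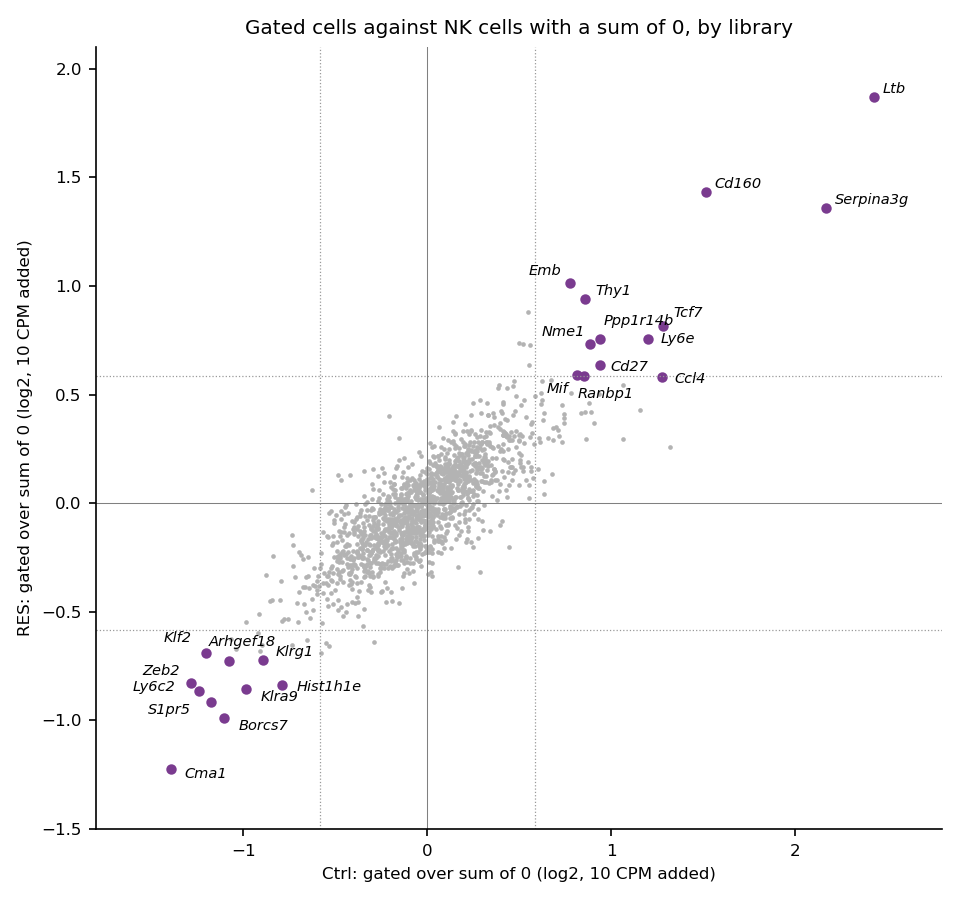
Each point is 1 gene with at least 100 CPM, placed by its log2 ratio of gated cells to NK cells with a sum of 0 in Ctrl (horizontal) and in RES (vertical), with 10 CPM added to both levels; 1597 genes are drawn and the named genes are labelled. Ltb and Serpina3g stand at the upper right, and Cma1, S1pr5 and Zeb2 at the lower left.

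Genes of less mature NK cells were higher in the gated cells of both libraries. Of the list's measured members, 7 of 12 were higher in Ctrl and 1 lower (Lef1), with a median log2 ratio of 0.79. In RES 9 of 13 were higher, with a median of 0.82. The medians over all genes were -0.05 and -0.04. Of all genes at 100 CPM or more that were past 1.5-fold, depth-weighting kept 79 of 139 in Ctrl and 19 of 42 in RES. Depth-weighted counts of this list are not given here. The list of ILC1 and tissue-residency genes, which shares Ltb with this one and also holds Cd160, had 3 of 8 members higher in Ctrl (median 0.51) and 3 of 9 in RES (median 0.33), Ltb and Cd160 among them in both, and none lower. Ltb was at 296 CPM in the Ctrl gated cells and 240.3 in the RES ones, against 46.7 and 58.5 in the cells with a sum of 0. Ltb, at chr17:35194439-35196320 (plus strand), encodes lymphotoxin β, the membrane anchor of the lymphotoxin heterotrimer, and its log2 ratio was 2.66 in Ctrl (2.38 to 2.95) and 2.04 in RES (1.79 to 2.29). In cells thinned to 1000 UMIs, an Ltb UMI was found in 23% and 18.3% of gated cells, against 2.07% and 3.74% of cells with a sum of 0. Lyz2-rich cells, thinned alike, stood above the cells with a sum of 0, at 6.71% and 6.59%, so they are no background for Ltb.

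Tcf7, which encodes TCF-1, followed the same direction. Tcf7 was at 135 CPM in the Ctrl gated cells and 108 in the RES ones, against 49.5 and 57.3 in the cells with a sum of 0, log2 ratios of 1.44 and 0.92; the depth-weighted RES value of 0.49 was under 1.5-fold. Cd27 was at 137 CPM in the Ctrl gated cells and 123 in the RES ones, against 66.5 and 75.7 in the cells with a sum of 0. Cd27, a costimulatory receptor of the TNF receptor family, had log2 ratios of 1.04 (0.75 to 1.33) and 0.70 (0.44 to 0.96). Il7r was at 43.9 CPM in the Ctrl gated cells and 74 in the RES ones, against 14.9 and 12.2 in the cells with a sum of 0. Il7r encodes the IL-7 receptor chain of ILCs and T cells, and its UMIs were found in only 24 and 41 gated cells, with 20.5% of the RES UMIs in 1 cell. Lef1, which encodes a relative of TCF-1, went the other way, from 84.8 and 83.8 CPM in cells with a sum of 0 to 45.8 and 55.8 in gated cells.

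Receptors of the costimulatory list were higher for 6 of 15 members in Ctrl (Crtam, Cd160, Cd28, Thy1, Cd69 and Slamf7) and for 4 of 14 in RES (Crtam, Cd160, Cd28 and Thy1), and 2 were lower in Ctrl, the IL-18 receptor chains Il18r1 and Il18rap. Cd160 was at 109.7 CPM in the Ctrl gated cells and 128 in the RES ones, against 31.8 and 41 in the cells with a sum of 0. Cd160 encodes a receptor for HVEM, and its log2 ratio was 1.78 (1.41 to 2.16) and 1.64 (1.33 to 1.96). Crtam was at 65.2 CPM in the Ctrl gated cells and 41.6 in the RES ones, against 7.96 and 5.63 in the cells with a sum of 0. Crtam, an adhesion receptor of stimulated NK and T cells, had the ratios 3.03 and 2.88, from 64 and 51 gated cells with a UMI. Crtam stood under 100 CPM in all 4 cell sets.

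Genes of NK maturation were lower. Of 14 measured members, 11 were lower and 0 higher in Ctrl (median log2 ratio -0.99), and 10 were lower and 0 higher in RES (median -0.70). Cma1 was at 126 CPM in the Ctrl gated cells and 173 in the RES ones, against 347 and 417 in the cells with a sum of 0. Cma1, at chr14:55941451-55944675 (minus strand), encodes a chymase, and its log2 ratio was -1.46 (-1.69 to -1.24) and -1.27 (-1.45 to -1.10). S1pr5 was at 85.2 CPM in the Ctrl gated cells and 111 in the RES ones, against 206 and 217 in the cells with a sum of 0. S1pr5 encodes the sphingosine-1-phosphate receptor with which mature NK cells leave tissues, and its ratios were -1.27 and -0.97. Zeb2 was at 339 CPM in the Ctrl gated cells and 382 in the RES ones, against 842 and 685 in the cells with a sum of 0. Zeb2, a transcription factor of terminal NK maturation, had ratios of -1.31 and -0.84.

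Klrg1, an inhibitory lectin receptor of mature NK cells, was at 72.1 and 92.8 CPM in gated cells against 143 and 159.6. Cx3cr1, the receptor for fractalkine, was at 18.2 and 22.8 CPM against 106 and 92.9, with log2 ratios of -2.55 and -2.03. Itgam itself, the gene of the sorted CD11b protein, was at 138 and 199 CPM against 294 and 322, so within a population sorted on CD11b the gated cells held less of its transcript. Klf2, which maintains egress receptors, was at 506 and 759 CPM against 1179 and 1229.5. Depth-weighting kept 11 of 14 maturation genes lower in Ctrl (median -0.70) but left 3 of 14 in RES (median -0.47). In RES, Ly6c2, which is on that list, came to -0.21, and Klf2, which is not, came to -0.42.

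**Figure D3:**
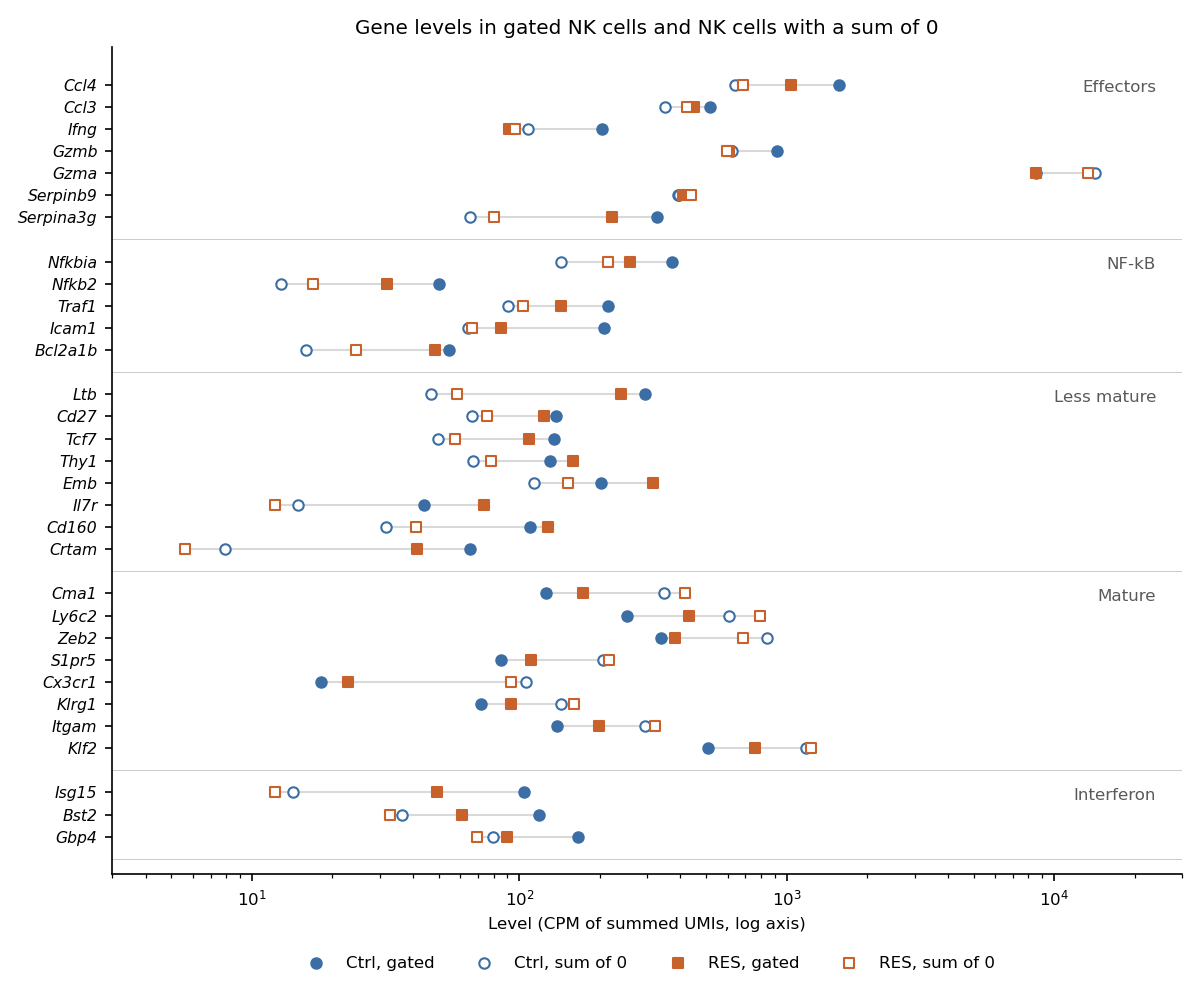
Levels of single genes (CPM of summed UMIs, logarithmic axis) in the Ctrl and RES gated cells and in the NK cells with a sum of 0, grouped as effectors, NF-kB genes, less mature and mature NK genes and interferon-induced genes. Ltb, Crtam and Cd160 lie to the right in both gated sets, Cma1, Cx3cr1 and S1pr5 to the left, and Icam1, Ifng and the interferon genes lie to the right mainly in the Ctrl gated cells.

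NF-kB targets and feedback inhibitors were higher in the Ctrl gated cells for 14 of 18 measured members (median log2 ratio 0.92) and in the RES ones for 4 of 18, Relb, Bcl2a1b, Nfkb2 and Bcl3 (median 0.28). Depth-weighted, these counts were 13 and 3. Nfkbia was at 372 CPM in the Ctrl gated cells and 258 in the RES ones, against 143 and 214 in the cells with a sum of 0. Nfkbia, at chr12:55489410-55492647 (minus strand), encodes IκBα, the inhibitor that NF-kB itself induces, and its log2 ratio was 1.38 in Ctrl (1.20 to 1.57) and 0.27 in RES (0.10 to 0.44). Nfkb2 was at 50.1 CPM in the Ctrl gated cells and 31.9 in the RES ones, against 12.8 and 16.9 in the cells with a sum of 0. Nfkb2, at chr19:46304320-46312385 (plus strand), encodes the p100 precursor of the noncanonical pathway that 4-1BB and lymphotoxin receptors engage, and its ratios were 1.97 and 0.92.

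Traf1, an adaptor bound by 4-1BB, was at 214 and 142 CPM in gated cells against 90.3 and 103, with log2 ratios of 1.24 and 0.46. Bcl2a1b, a survival gene of the Bcl2 family with near-identical copies in the genome whose reads may be split between them, was at 54.5 and 48.2 CPM against 15.9 and 24.4. Icam1, at chr9:21015985-21028817 (plus strand), the adhesion ligand of LFA-1 and Mac-1 integrins, was at 207 and 85.7 CPM against 64.4 and 66.6, a log2 ratio of 1.68 in Ctrl and 0.36 in RES. Whether the Ctrl and RES ratios of these genes differ was not tested, since each rests on 1 library.

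The promoter windows of 4 of these genes are shown because each holds an NF-kB (kB) motif before a RefSeq transcript start, among them Tnfrsf9, 1 of the selecting genes, and Ltb, which ranked first among the genes at 100 CPM or more outside the selection. They are the 250 bases before such a start on build GRCm38.p6, read 5′ to 3′ on the gene's strand, with the match to the kB consensus in capitals. That consensus has 10 letters: it opens with GGGA, then any base, TT, any base, and closes with CC. In Ltb and Nfkbia the match is on the opposite strand, so the capitals show its reverse complement. Tnfrsf9 matches on the gene's strand, and the Nfkb2 match reads the same on both strands.
Tnfrsf9, chr4:150927749-150927998, plus strand: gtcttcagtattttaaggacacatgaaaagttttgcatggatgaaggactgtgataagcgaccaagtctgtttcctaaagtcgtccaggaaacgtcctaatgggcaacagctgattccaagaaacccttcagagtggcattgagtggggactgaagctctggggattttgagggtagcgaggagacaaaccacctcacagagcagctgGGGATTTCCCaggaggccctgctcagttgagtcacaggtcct
Ltb, chr17:35194257-35194506, plus strand: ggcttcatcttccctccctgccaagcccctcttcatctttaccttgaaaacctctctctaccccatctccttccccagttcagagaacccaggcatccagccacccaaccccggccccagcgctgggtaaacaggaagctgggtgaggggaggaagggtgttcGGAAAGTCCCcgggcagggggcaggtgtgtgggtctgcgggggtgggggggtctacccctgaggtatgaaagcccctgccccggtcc
Nfkbia, chr12:55492648-55492897, minus strand: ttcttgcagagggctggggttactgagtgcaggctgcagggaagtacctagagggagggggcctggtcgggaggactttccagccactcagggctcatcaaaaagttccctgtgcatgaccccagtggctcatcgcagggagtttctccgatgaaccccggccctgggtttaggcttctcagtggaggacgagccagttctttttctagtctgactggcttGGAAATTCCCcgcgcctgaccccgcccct
Nfkb2, chr19:46304487-46304736, plus strand: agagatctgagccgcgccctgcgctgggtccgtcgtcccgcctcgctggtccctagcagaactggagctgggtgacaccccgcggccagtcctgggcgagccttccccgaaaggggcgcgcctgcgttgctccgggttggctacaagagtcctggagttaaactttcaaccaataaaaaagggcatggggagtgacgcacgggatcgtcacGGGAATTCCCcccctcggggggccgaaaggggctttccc
The match begins 42, 87, 29 and 39 bases before that RefSeq start. These starts are not always those of the gene spans: the Tnfrsf9 window lies inside the annotated gene, chr4:150914562-150946102 (plus strand), the Nfkb2 window lies inside the Nfkb2 span given above, and the Ltb window reaches past the start of the Ltb span. The Nfkbia window ends at the start of its span. Searched on both strands in windows from 250 bases before to 50 after each start, this motif was in 394 of 32851 RefSeq windows (1.20%) and in some window of 372 of 27025 genes (1.38%). Of the 16 genes of the NF-kB list with a window, 6 had it (37.5%): Bcl3, Nfkbid, Rel, Tnip1, Nfkbia and Nfkb2. That list was made of known NF-kB targets and inhibitors, so its share is no result about the gated cells. The motif was not found in the Xcl1 window, the Serpina3g window or the other Tnfrsf9 window. It was also in the other Nfkb2 windows. The AP-1 motif TGANTCA, also searched on both strands, was in 7.81% of windows and in the Tnfrsf9 window printed here, where it does not overlap the kB match. A match describes the letters only.

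Genes of growth and protein folding were higher in the Ctrl gated cells. Of the Myc, ribosome biogenesis and nutrient list, 15 of 21 measured members were higher in the Ctrl gated cells (median log2 ratio 0.69) and 5 of 20 in RES (Srm, Nme1, Myc, Fbl and Ranbp1; median 0.51). Depth-weighting left 6 of 21 and 1 of 20. With only gated cells that had a Tnfrsf9 UMI, 18 of 21 were higher in Ctrl and 14 of 21 in RES, and with only the cells that had Xcl1 without Tnfrsf9, 4 of 20 and 1 of 19. Nme1 was at 369 CPM in the Ctrl gated cells and 302 in the RES ones, against 196 and 178 in the cells with a sum of 0. Nme1 encodes a nucleoside diphosphate kinase. Eif5a, a translation factor that carries hypusine, was at 605 and 501 CPM against 284 and 341. Srm, which encodes spermidine synthase, was at 47.6 and 29.9 CPM against 11.8 and 7.51.

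Heat-shock genes were higher for 7 of 9 members in Ctrl (median log2 ratio 0.74; 2 of 9 depth-weighted) and for 0 of 9 in RES (median 0.42). Hsp90ab1, an abundant chaperone, was at 1863 and 1612 CPM against 1000.4 and 1201. Genes of the IL-2, IL-15 and STAT5 response were higher for 8 of 16 in Ctrl and 4 of 16 in RES (Socs2, Gadd45b, Gadd45g and Pim2), with medians of 0.53 and 0.23. Pim1, a kinase induced by STAT5, was at 615 and 390.3 CPM against 334 and 316. Gadd45b, a stress sensor that acts upstream of p38, was at 75.8 and 34.5 CPM against 12.1 and 11.6. Immediate-early genes, which tissue dissociation also induces, were not among the genes higher in the gated cells: 0 of 15 were higher in either library and 1, Klf2, was lower in both.

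Among cytokines and chemokines, 4 of 7 measured members were higher in the Ctrl gated cells (Ltb, Ccl4, Tnfsf14 and Ifng) and 2 of 7 in RES (Ltb and Tnfsf14). Ifng was at 204 CPM in the Ctrl gated cells and 91.2 in the RES ones, against 107 and 96 in the cells with a sum of 0. The log2 ratio of Ifng, the interferon-γ gene, was 0.92 in Ctrl (0.70 to 1.15) and -0.07 in RES (-0.35 to 0.20), and the top 10% of gated cells held 68% and 52.2% of its UMIs. Of the granule and serpin genes, 2 of 16 were higher in Ctrl (Gzmc and Srgn) and 2 lower (Ctsc and Gzma), while in RES 2 of 15 were lower (Serpinb9b and Gzma). Prf1, the perforin gene, was at 953 and 856 CPM against 1235 and 1138. Serpina3g was at 328 CPM in the Ctrl gated cells and 222 in the RES ones, against 65.1 and 80.4 in the cells with a sum of 0. Serpina3g, which encodes an intracellular inhibitor of cathepsins, had log2 ratios of 2.33 (2.09 to 2.58) and 1.46 (1.24 to 1.69).

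Levels differed along the sum of Xcl1 and Tnfrsf9, and not all in the same way. In cells with a sum of 0, 1, 2, 3 to 4, and 5 or more, Ltb was at 46.7, 146, 191, 259.6 and 373 CPM in Ctrl and at 58.5, 152, 239, 235 and 245 in RES. In Ctrl it was higher at each step, and in RES it was level from a sum of 2 upward. Over the same classes Klf2 was at 1179, 833, 688, 617 and 344 CPM in Ctrl and at 1229.5, 1068, 870.1, 834 and 605 in RES, lower at each step in both. Ifng was at 107, 115, 119, 123 and 296 CPM in Ctrl, where it stood out in the class of 5 or more, and at 96, 105, 64.3, 103 and 107 in RES, where it did not.

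Icam1 was at 64.4, 91.2, 102, 162 and 289 CPM in Ctrl and at 66.6, 68.5, 67.3, 54.2 and 125 in RES over these classes. Ccl4 was at 642, 986, 1135, 918 and 2181 CPM in Ctrl and 686, 774, 719, 650.0 and 1595 in RES, so in both libraries the class of 5 or more stood apart. Serpinb9 was at 397, 403, 340.1, 317 and 466 CPM and 437, 427, 396, 428 and 403 CPM and showed no steady course. Depth went with the sum, since the median UMIs per cell were 2960.5, 3419, 3903.5, 3885 and 4534 in Ctrl and 3719.5, 4106, 4329, 4741.5 and 5617 in RES; its part in these courses was not tested beyond the depth-weighted values.

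**Figure D4:**
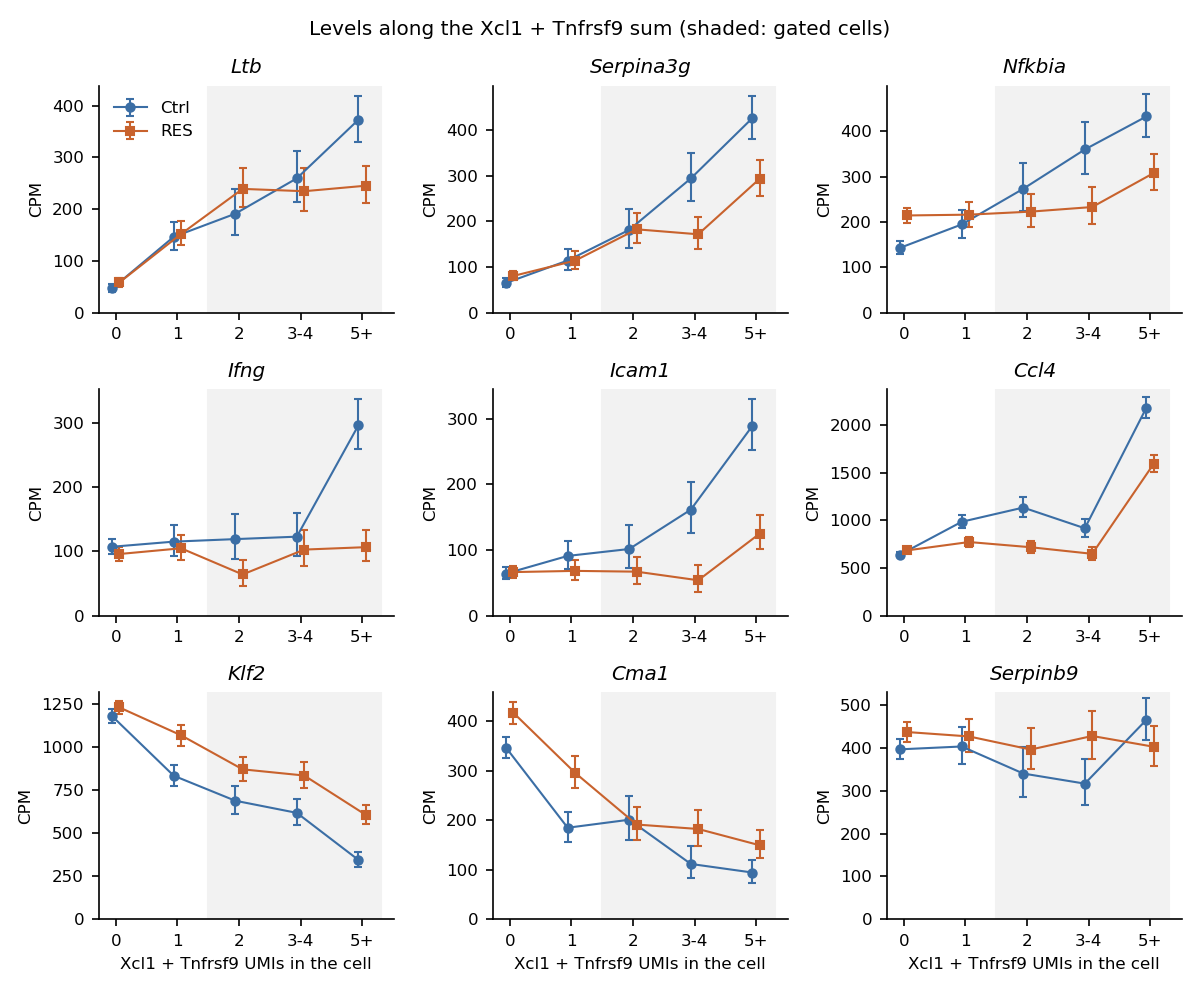
CPM (vertical axes, from 0) of single genes in NK cells by the sum of Xcl1 and Tnfrsf9 UMIs (horizontal axis), for Ctrl and RES, with exact 95% Poisson intervals for counting error; shading marks the gated cells. Klf2 is lower at each step in both libraries, and Ifng and Icam1 stand out at sums of 5 or more in Ctrl.

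Within the gate, cells with a Tnfrsf9 UMI (169 in Ctrl, 154 in RES) were compared with cells that had Xcl1 without Tnfrsf9, at median depths of 4119 against 4086 UMIs in Ctrl and 5137 against 4650 in RES. Gzmb was higher with Tnfrsf9: 1178 against 668 CPM in Ctrl and 904 against 384 in RES, log2 ratios of 0.82 (0.66 to 0.97) and 1.24 (1.06 to 1.41). Gadd45b was at 115 against 37.2 CPM and at 56.1 against 17.9. Crtam was at 97.5 against 33.5 CPM and at 53.7 against 32.2. The cells with Tnfrsf9 were thus the side of the gate that held more granzyme B transcript in both libraries.

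The cells with Xcl1 alone held more of some genes of less mature cells. Ltb was at 375 CPM in them against 215 with Tnfrsf9 in Ctrl, and at 273 against 197 in RES. Emb, which encodes the adhesion protein embigin, was at 235 against 167 CPM and at 372 against 244. Cd27 was at 150 against 123 CPM in Ctrl but at 122 against 125 in RES. Outside the less mature list, Cd69, an early activation receptor that retains lymphocytes in tissue, was at 318 against 171 CPM and at 263 against 211. For Zeb2 the libraries differed: it was at 251 against 429 CPM in Ctrl but at 357 against 414 in RES, log2 ratios of Tnfrsf9 cells to the rest of 0.78 (0.52 to 1.03) and 0.21 (0.00 to 0.42). The difference between the libraries was not tested.

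Between the groups, the RES gated cells held less transcript of Ifng, Icam1 and interferon-induced genes than the Ctrl gated cells, and more of Zfp36l2, Tsc22d3 and Dusp2. Among 1656 genes with at least 100 CPM, 12 were 1.5-fold or more higher in RES (0.725%) and 26 lower (1.57%). With a minimum of 20 CPM these were 1.53% and 1.78% of 6026 genes. Depth-weighted, 30 were higher and 26 lower, a more even split. In the NK cells with a sum of 0, 9 of 1663 genes were higher (0.541%) and 2 lower (0.12%), and with a minimum of 20 CPM 0.65% and 0.117% of 5998 genes. The gated cells are fewer and their counts scatter more, so the numbers of genes in the 2 cell sets cannot be set against each other directly. The selecting genes also stood lower in the RES gated cells: Xcl1 was at 1356 CPM in Ctrl and 928 in RES, and Tnfrsf9 at 277 and 169.

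Icam1 was at 207 CPM in the Ctrl and 85.7 in the RES gated cells, a log2 ratio of -1.27 (-1.55 to -1.0), while in cells with a sum of 0 it was 0.05 (-0.24 to 0.34). For Ifng the levels were 204 and 91.2 CPM, a log2 ratio of -1.16 (-1.43 to -0.89), against -0.16 (-0.39 to 0.07) in cells with a sum of 0. An Ifng UMI was found in 33.1% of Ctrl and 32.4% of RES gated cells at full depth, and in 15.8% and 9.81% after thinning to 1000 UMIs; in Lyz2-rich cells the thinned shares were 0% and 0.0549%. Both genes were lower in RES in the Xcl1-alone and in the Tnfrsf9 cells, Icam1 by -1.34 and -1.22 and Ifng by -1.11 and -1.22 as log2 ratios.

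Of 17 measured interferon-induced genes, 7 were lower in the RES gated cells and 0 higher (among them Ifi27l2a, Isg15, Igtp, Bst2, Gbp4 and Usp18; median log2 ratio -0.50), 6 of 17 depth-weighted, while in the cells with a sum of 0 none of 13 was past 1.5-fold (median -0.11). Against the cells with a sum of 0, 10 of 17 were higher in the Ctrl gated cells and 3 of 14 in the RES ones (Isg15, Ly6e and Bst2). These counts share the Ctrl gated cells and are not independent of each other. Gbp4, an interferon-induced GTPase, was at 166 CPM in Ctrl and 89.7 in RES, a log2 ratio of -0.89 (-1.17 to -0.61), seen in 147 and 121 cells. Isg15, a ubiquitin-like antiviral protein, was at 104 and 49.2 CPM in 60 and 25 cells. In RES, 1 cell held 22.7% of the Isg15 UMIs of the gated cells. After thinning, an Isg15 UMI was found in 5.75% of Ctrl and 2.45% of RES gated cells, and in 1.61% and 0.902% at a sum of 0. In Lyz2-rich cells, thinned alike, the shares were 10.9% and 3.35%. The lower RES share of Isg15 was therefore not confined to the gated cells. Whether the same holds for the other interferon-induced genes was not tested. Bst2, which encodes tetherin, was at 118 and 60.8 CPM.

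**Figure D5:**
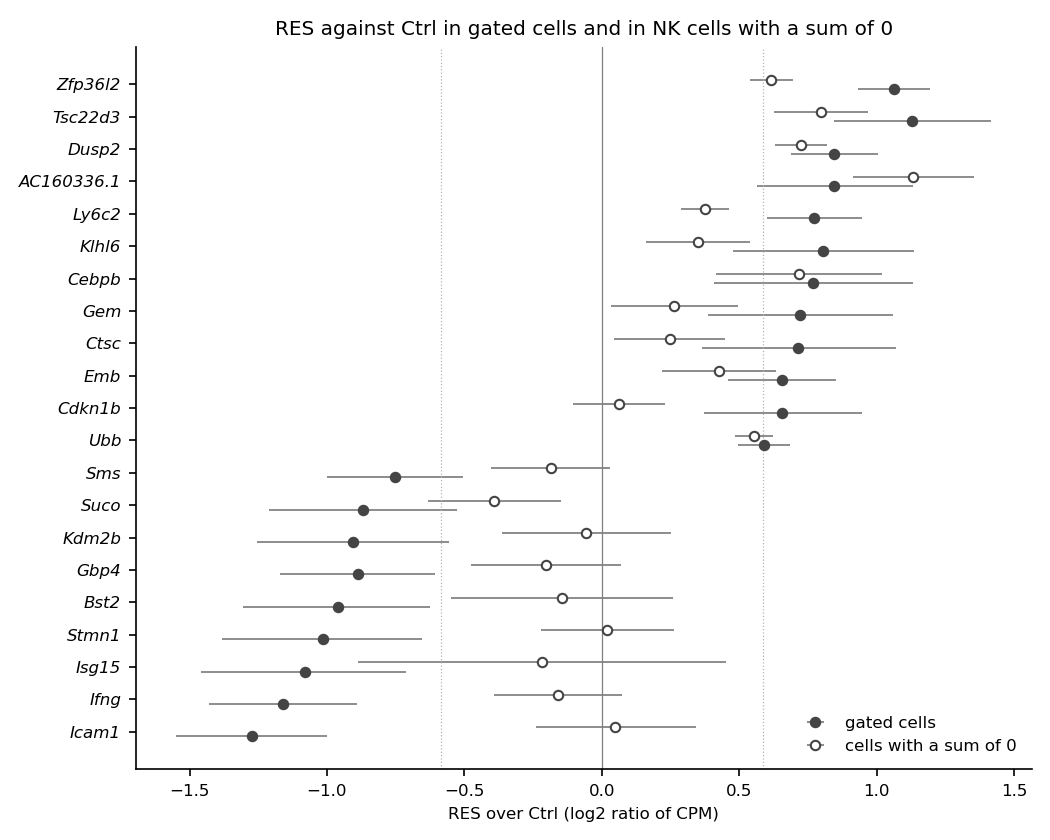
Log2 ratio of RES to Ctrl CPM (horizontal axis) for the named genes in the gated cells and in NK cells with a sum of 0, with exact 95% intervals for counting error. Icam1, Ifng and Gbp4 lie left of 0 in the gated cells and near 0 in the cells with a sum of 0, while Zfp36l2, Tsc22d3 and Dusp2 lie right of 0 in both.

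Other genes lower in the RES gated cells were Stmn1, Kdm2b, Suco and Sms, with levels of 107 against 52.7, 109 against 58.3, 113 against 61.8 and 201 against 119 CPM. Stmn1, a microtubule regulator of dividing cells, rested on few cells, since 1 cell held 30.6% of its Ctrl UMIs. Igha, an immunoglobulin chain, also ranked among the lower genes, but 341 of its 344 UMIs in the Ctrl gated cells came from 1 barcode of 11908 UMIs. Pim1 was at 615 against 390.3 CPM, a log2 ratio of -0.66 (-0.79 to -0.52). Gzmb had a ratio of -0.59 (-0.70 to -0.48) and Ccl4 of -0.60 (-0.69 to -0.52), against -0.06 and 0.10 in cells with a sum of 0. Depth-weighted, Ccl4 came to -0.33, under 1.5-fold, and in the Xcl1-alone cells it was also -0.33, while with Tnfrsf9 it was -0.89.

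Several of the genes higher in RES were also higher in NK cells with a sum of 0. Zfp36l2, whose product promotes decay of AU-rich transcripts, was at 417 CPM in Ctrl and 871 in RES gated cells, a log2 ratio of 1.06 (0.93 to 1.20), and 729.7 and 1119 CPM in cells with a sum of 0, a ratio of 0.62 (0.54 to 0.70). Tsc22d3, the glucocorticoid-induced leucine zipper, was at 88.4 and 193 CPM, a ratio of 1.13 (0.85 to 1.42) against 0.80 (0.63 to 0.97). Dusp2, a phosphatase of MAP kinases, was at 300.2 and 539.9 CPM, ratios of 0.85 and 0.73. The unnamed gene model AC160336.1 had ratios of 0.85 and 1.13, Cebpb, a transcription factor, of 0.77 and 0.72, and Ubb, a ubiquitin gene, of 0.59 and 0.55.

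Other higher genes showed smaller ratios in the cells with a sum of 0. Ly6c2 had log2 ratios of 0.77 (0.60 to 0.95) and 0.37 (0.29 to 0.46), Klhl6 of 0.80 and 0.35, Gem, a small GTPase, of 0.72 and 0.26, and Ctsc, the protease that activates granzymes, of 0.71 and 0.25. Cdkn1b, the cell cycle inhibitor p27, had 0.66 (0.37 to 0.94) and 0.06 (-0.11 to 0.23). Emb had 0.66 and 0.43. None of these differences between cell sets was tested. Of 14 maturation genes 1 was higher (Ly6c2; median 0.29), and of 13 less mature genes 3 were higher (Cxcr4, Il7r and Emb; median 0.24), so the RES gated cells did not stand to 1 side of the maturation lists. Of 18 NF-kB genes 2 were lower (Icam1 and Nfkbie; median -0.34), and of 21 growth genes 1 was lower (Gnl3; median -0.28), or 6 of 21 depth-weighted.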

How the data were processed

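Each of the 2 libraries was deposited by the authors as unnormalized UMI counts of genes by barcodes, made with Cell Ranger 3.1.0 per the file headers, on build mm10 after bcl2fastq per the submitters' processing notes; which annotation was counted is not given in the sources used here. From these counts, barcodes were selected as described above and UMIs were summed per cell set, with Python 3.11.15, numpy 2.4.6, scipy 1.17.1, pandas 2.3.3 and scanpy 1.11.5 (Scrublet scores, at 0.8% per 1000 barcodes, only as an alternative). Intervals are exact at 95%: Clopper-Pearson for shares, Poisson for levels and conditional binomial for ratios, and they cover counting error only. With 1 library of 5 pooled mice per group there was no test across samples. Counts were also simulated for each comparison as Poisson sums, with no spread between cells or mice. The ratio intervals held the true ratio there for 95.7% of genes for RES against Ctrl in gated cells. For gated against none they held it for 96.3% in Ctrl and 96.3% in RES. Such counts follow the model of the intervals, so this checks the calculation and not how the intervals do on the real, unevenly spread counts. The members and gene lists were chosen with earlier results of these data known. The rule for named genes took the selecting genes and markers, the 12 highest and 12 lowest genes of RES against Ctrl, the 15 highest and 10 lowest by the library value nearer to 0 for gated against none, and the 2 highest and 2 lowest members of each list, leaving out markers of other cell types and haemoglobin, Y-linked, Xist, ribosomal protein and mitochondrial genes; Traf1 was named beside them after its value was seen, and some genes that the rule names are not reported here. Gene positions are those of the GRCm38 annotation (all 190 named genes were matched), and promoter windows are RefSeq's. Alternatives changed the scaling, pseudocount, level minimum, depth, doublet, quality and gating limits 1 at a time.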

Additional observations from a re-analysis of the deposited data

Results flagged for a closer look

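Mki67, a gene of dividing cells, was lower in RES than in Ctrl in the gated cells (52.0 CPM in Ctrl and 26.9 in RES, a log2 ratio of -0.75 with 10 CPM added) and higher in RES in the NK cells with a sum of 0 (11.4 and 26.6 CPM). It is given here because the ratios point in opposite directions; that difference was not tested, since each group is 1 library. Neither direction held throughout. At a sum of 0 the ratio came to -0.57 depth-weighted and -0.85 with Lyz2 of 0. In the gated cells it came to 0.089 with a sum of at least 3 and to 0.32 in the cells with Xcl1 alone (31.0 CPM in Ctrl and 41.2 in RES). The lower RES level lay in the gated cells with a Tnfrsf9 UMI, at 73.4 CPM in Ctrl and 8.18 in RES. Over the whole gate, Mki67 UMIs came from 10 Ctrl and 5 RES cells, and 1 RES cell held 81.1% of those in its set.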

How the results depend on the processing

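Of 2658 alternative values for 197 named gene results, 2395 stayed near the main value, 245 moved away from it in the same direction and 18 turned direction. A value counted as moved when it lay further from the main value than the main counting-error interval reached on its wider side. These counts do not give the side of 1.5-fold on which a value lay. The shares of gated cells came to 9.73% in Ctrl and 6.88% in RES when cells were thinned to 1000 UMIs before selection. They came to 32.9% and 27.4% among cells with 3000 to 8000 UMIs, and to 17.7% and 16.7% with a sum of at least 3. The counts of genes past 1.5-fold were 38 for RES against Ctrl in gated cells, 139 and 42 for gated cells against a sum of 0 in Ctrl and RES, and 11 for RES against Ctrl at a sum of 0. With at least 20 CPM they were 199, 508, 194 and 46, since more genes entered, and with cells thinned to 1000 UMIs, which leaves fewer counts, 150, 228, 101 and 31. Scaling without mitochondrial and ribosomal genes gave 59 for RES against Ctrl and 65 in RES (37 higher, 28 lower, against 18 and 24). A Lyz2 limit of 0 gave 59 for RES against Ctrl, depth-weighting 25 in RES, a sum of at least 3 gave 221 in Ctrl and 72 in RES, and gated cells with a Tnfrsf9 UMI gave 63, 267 and 88. Among RES against Ctrl ratios in gated cells that turned, Klra5 came to 0.066 when thinned, Il7r to -0.064 with Lyz2 of 0, and Mki67 to 0.089 with a sum of at least 3; in cells with Xcl1 alone Mki67 came to 0.32, Gadd45g to 0.23, Ifi27l2a to 0.019, Igha to 0.12 and Socs2 to -0.053. Among ratios of gated cells to a sum of 0, Top2a came to -0.083 depth-weighted, Socs2 to -0.30 and Isg15 (RES) to -0.20 with a Tnfrsf9 UMI, Ifi27l2a to -0.12 and Igha to -0.27 with Xcl1 alone, and Igha to -0.022 without the barcode that held nearly all of its UMIs. At a sum of 0, Mki67 came to -0.57 depth-weighted and -0.85 with Lyz2 of 0, where Tmem176a came to -0.034 and Tmem176b to -0.024. Apart from the barcode of Igha the cause was not tested. The alternatives for Tnfrsf9 or Xcl1 alone and for the Igha barcode were chosen after seeing the data. No paired analysis was possible because each group is 1 library.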

Other observations

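Of the glucocorticoid-induced genes, 2 of 6 measured members were higher in RES than in Ctrl gated cells (Tsc22d3 and Ddit4, list median log2 ratio 0.50) and 3 of 7 at a sum of 0 (Fkbp5, Ddit4 and Tsc22d3, median 0.38). None was lower, and the other members were under 1.5-fold. Ddit4, an inhibitor of mTORC1, was at 16.3 CPM in Ctrl and 37.5 in RES gated cells, and at 27.3 and 53.8 CPM at a sum of 0. Fkbp5, a co-chaperone of the glucocorticoid receptor, was at 40.7 and 60.8 CPM in the gated cells, under 1.5-fold with 10 CPM added, and at 30.8 and 69.8 CPM at a sum of 0. Cxcr4, the receptor for CXCL12, was at 28.8 and 60.8 CPM in the gated cells and at 24.6 and 64.8 CPM at a sum of 0. Within Ctrl, 3 of 6 glucocorticoid-induced genes (Sgk1, Tsc22d3 and Txnip) were lower in gated cells than at a sum of 0; in RES none of 7 was past 1.5-fold.

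Glycolysis and hypoxia genes were past 1.5-fold for 0 of 14 members in each of the 4 comparisons. Of the NK and ILC transcription factors, 2 of 19 were higher in the Ctrl gated cells than at a sum of 0 (Ikzf2 and Nfil3) and 3 lower (Zeb2, Klf2 and Prdm1), and in RES 2 of 19 were lower (Zeb2 and Klf2). Of the same 19, 1 was lower in RES than in Ctrl gated cells (Ikzf2). Calcium, NFAT, Egr and Nr4a genes were higher for 3 of 12 in the Ctrl gated cells (Nr4a3, Egr3 and Nr4a1) with 1 lower (Dusp2), and for 1 of 11 in RES (Nr4a3) with none lower. Between the gated sets, 2 of 12 were lower in RES than in Ctrl (Nr4a3 and Egr3) and 1 higher (Dusp2). Nr4a3, an orphan nuclear receptor induced by antigen receptor and NK receptor signals, was at 67.7 CPM in the Ctrl and 35.0 in the RES gated cells, against 13.5 and 15 CPM. Cell cycle genes were higher for 3 of 13 in the Ctrl gated cells (Mki67, Birc5 and Top2a), but for 0 of 13 depth-weighted, and 1 of 12 was lower in the RES gated cells than at a sum of 0 (Stmn1). Between the gated sets, 4 of 13 were lower in RES than in Ctrl gated cells (Top2a, Birc5, Stmn1 and Mki67), from few cells.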
